A study of Mus musculus with 13 samples.

Results

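Small nucleolar RNAs of the C/D box class were measured in microglia, the resident macrophages of the brain. They were taken as the entries of the gene table whose symbol is Snord followed by a number, which gave 61 of 14518 entries. The microglia came from 2-month-old C57BL/6 mice and were sorted as cells positive for CD11b with intermediate CD45. Samples of the first group (RSD, n = 7) were from mice put through repeated social defeat, a stressor in which an aggressor is met again and again, for 6 cycles. Those of the second group (CON, n = 6) were from control mice. RNA of both groups was taken 24 days after the last cycle, so the comparison asks which small nucleolar RNAs still differed at that time. No transgene or drug is named for either group. Nothing in the labels ties each sample to its own animal, so p-values below cover only the spread between samples, which may be technical. Samples are named by group and sample number, as in RSD 7.

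A C/D box small nucleolar RNA is a short nuclear RNA that forms a particle with fibrillarin (Fbl), Nop56, Nop58 and Snu13. The RNA pairs with a target, most often ribosomal RNA, and fibrillarin then methylates a ribose of the paired stretch. The C box near the start and the D box near the end of the RNA are where the proteins bind. In mammals most of these RNAs are cut out of introns of host genes, many of which code for ribosomal proteins or other parts of the translation machinery.

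The GENCODE M21 annotation of the mm10 assembly held all 61 RNAs, and they follow this layout to differing degrees. Snord43 is annotated there as a microRNA gene of 108 bases, so its place in the class rests on its symbol. The whole of 59 lay inside 44 host genes on the same strand, and Snord104 and Snord118 had no host there. Of the 61, 24 overlapped an annotated exon of a host transcript, where reads of the host and of the small RNA share positions. Among the members named further on these were Snord2, Snord12, Snord15b, Snord16a, Snord22, Snord33, Snord57, Snord66, Snord68, Snord69 and Snord96a. Snord4a, Snord8, Snord35b and Snord42a also lie opposite another annotated gene. Snord118, Snord1c and Snord58b share a stretch of 50 bases with another small RNA gene. How reads on such shared positions were assigned, and whether the counting used strand, is not given in the sources used here, so these values are less certain. The records were 64 to 238 bases long with a median of 79. A D box (CTGA, in the last 30 bases, sense strand) was found in 60 of 61 (98.4%) and a C box (NTGATGA, in the first 30 bases, sense strand) in 37 of 61 (60.7%). Among the 42 annotated H/ACA small nucleolar RNA genes, the other large class, 8 (19%) had the D box letters and 0 the C box letters. Both boxes stood in 36 of the 61 (59%) and in 0 of the 42.

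The sequences below are those the results turn on, from the GENCODE M21 transcripts on the mm10 assembly, 5′ to 3′, with the C box and the D box in capitals. Snord104 (chr11:106500993-106501062, plus strand) and Snord66 (chr16:20684239-20684313, plus strand, in Eif4g1) are the members whose RSD and CON libraries did not overlap. Human Snord104 guides methylation of large-subunit ribosomal RNA and human Snord66 of small-subunit ribosomal RNA.
Snord104: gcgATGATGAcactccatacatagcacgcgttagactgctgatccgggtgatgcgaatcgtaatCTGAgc
Snord66: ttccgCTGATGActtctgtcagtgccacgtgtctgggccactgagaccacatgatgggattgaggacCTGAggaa
Snord17 (chr2:144265979-144266216, minus strand, in an intron of Snx5) and Snord15b (chr7:99479563-99479707, minus strand, in Rps3) held most of the reads of the class. Both are longer than most members, and their human counterparts guide methylation of large-subunit ribosomal RNA.
Snord17: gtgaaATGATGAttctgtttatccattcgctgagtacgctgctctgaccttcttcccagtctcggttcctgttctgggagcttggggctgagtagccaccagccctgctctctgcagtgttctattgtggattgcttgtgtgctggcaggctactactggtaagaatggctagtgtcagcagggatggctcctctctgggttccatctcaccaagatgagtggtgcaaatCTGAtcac
Snord15b: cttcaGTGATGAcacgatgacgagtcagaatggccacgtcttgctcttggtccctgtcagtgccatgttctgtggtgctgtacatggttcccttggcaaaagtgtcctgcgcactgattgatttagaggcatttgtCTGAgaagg
Snord49b (chr11:62603079-62603150, plus strand) and Snord49a (chr11:62603450-62603521, plus strand) lie in the same noncoding host RNA, 2410006H16Rik, and were 69.2% identical when aligned.
Snord49b: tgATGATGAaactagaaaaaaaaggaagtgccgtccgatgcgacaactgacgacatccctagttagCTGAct
Snord49a: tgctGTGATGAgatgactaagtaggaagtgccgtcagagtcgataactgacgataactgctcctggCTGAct
Snord32a (chr7:45127382-45127464, minus strand, in Rpl13a) and Snord87 (chr1:9942463-9942549, minus strand, in Snhg6) differed between the ranges of sample numbers described further on.
Snord32a: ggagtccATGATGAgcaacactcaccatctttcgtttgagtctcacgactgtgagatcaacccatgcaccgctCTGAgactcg
Snord87: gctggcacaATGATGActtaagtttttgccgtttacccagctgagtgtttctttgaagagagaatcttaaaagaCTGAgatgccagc

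Each library held 9.76 to 12.3 M reads, and values are reads divided by the library's size factor, called normalized reads here. Microglial markers summed to 162748 to 270906 normalized reads, with the lowest sum in CON 18. Markers of macrophages of the brain's borders summed to 14730 in CON 18 and to at most 444 elsewhere. Neutrophil markers (5 of 5 measured) summed to 11.6 to 730 in CON and 21.1 to 1185 in RSD. By the sample numbers described further on, the sums were 182 to 1185 in numbers 1 to 8 and 11.6 to 124 in 10 to 19, without overlap. They were 776 in RSD 7, 920 in RSD 8, 549.7 in CON 5 and 730 in CON 4, and highest in RSD 2 at 1185. RSD 7, RSD 8 and CON 5 also stood apart in other small noncoding RNAs. Rmrp, the RNA of the RNase MRP particle, had 1915, 1495 and 6845 normalized reads in them and at least 12605 in the other libraries. Rpph1, the RNA of RNase P, had 1971, 1222 and 7206 in them and at least 13842 elsewhere. Microglial markers summed to 255316 in RSD 7, 251501 in RSD 8 and 267910 in CON 5. A lower level in such a bulk sample can come from less RNA per cell or from fewer cells of a type, and it may also be technical. These cannot be told apart, and the cause was not tested.

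Of the 61 members, 47 passed the filter on low values and entered the tests, with mean values of 9.60 to 12210 normalized reads and a median of 42.0. The other 14 had means of 2.26 to 10.8 and are not tested. Per 100 bases, Snord17 stood highest at 5130 normalized reads, followed by Snord15b at 4122. The next were Snord49b at 523, Snord15a at 385, Snord104 at 362 and Snord83b at 288. The steps between Snord49b and Snord83b are small beside the spread of each over libraries.

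All 61 together took 0.226% ± 0.120 (SD, n = 7) of the reads in RSD and 0.154% ± 0.0809 (SD, n = 6) in CON, a difference within the spread of either group. The lowest share was 0.0480% in CON 5 (95% exact binomial interval 0.0467% to 0.0494%, counting error only) and the highest was 0.335% in RSD 12 (0.332% to 0.338%). RSD 8 at 0.0547% and RSD 7 at 0.0637% were next to CON 5, so both groups held libraries at the low end. Snord17 and Snord15b made up 61.5% to 90.4% of the members' reads in a library. Without these, the share was 0.0377% ± 0.0156 in RSD (SD, n = 7) and 0.0259% ± 0.00665 in CON (SD, n = 6).

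**Figure D1:**
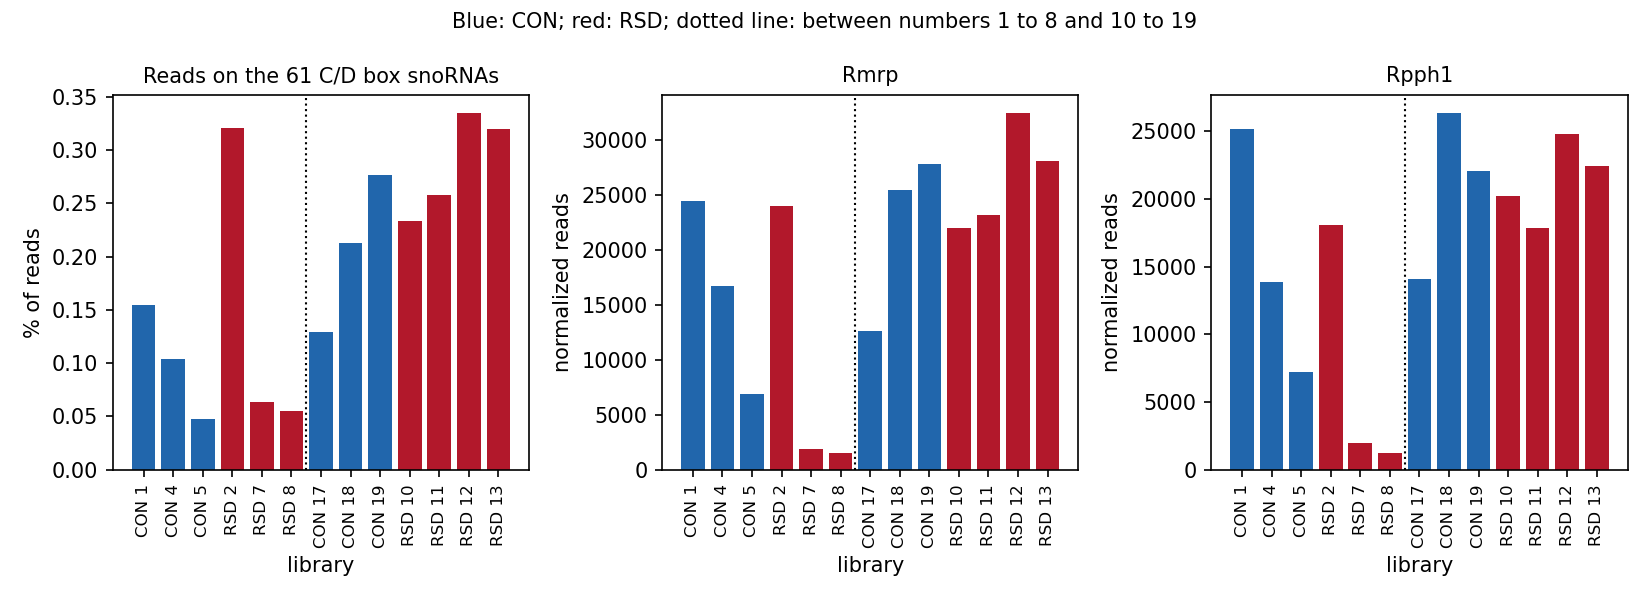
Bars give, for each of the 13 libraries, the percent of reads on the 61 C/D box small nucleolar RNAs (left) and the normalized reads of Rmrp (middle) and Rpph1 (right). Blue is CON and red is RSD, and the dotted line parts sample numbers 1 to 8 from 10 to 19. CON 5, RSD 7 and RSD 8 are the 3 lowest in every panel.

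Most members moved together from library to library. Over the 47, the mean deviation of a library from each member's own median was -0.92 on the log2 scale in CON 5 and -0.90 in RSD 7. It was 0.62 in RSD 13 and 0.50 in RSD 11. CON 5 held the lowest value of 16 members and RSD 7 that of 15, while RSD 11 held the highest value of 16 and RSD 13 that of 12. The 30 H/ACA members that passed the filter deviated the same way in these libraries, by -1.23 in CON 5 and -1.51 in RSD 7, and by 0.54 in RSD 13. Some C/D box members did not follow. RSD 8, with a mean deviation of -0.43, held the highest value of 3 of them, among which were Snord118 (92.6) and Snord2 (123).

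**Figure D2:**
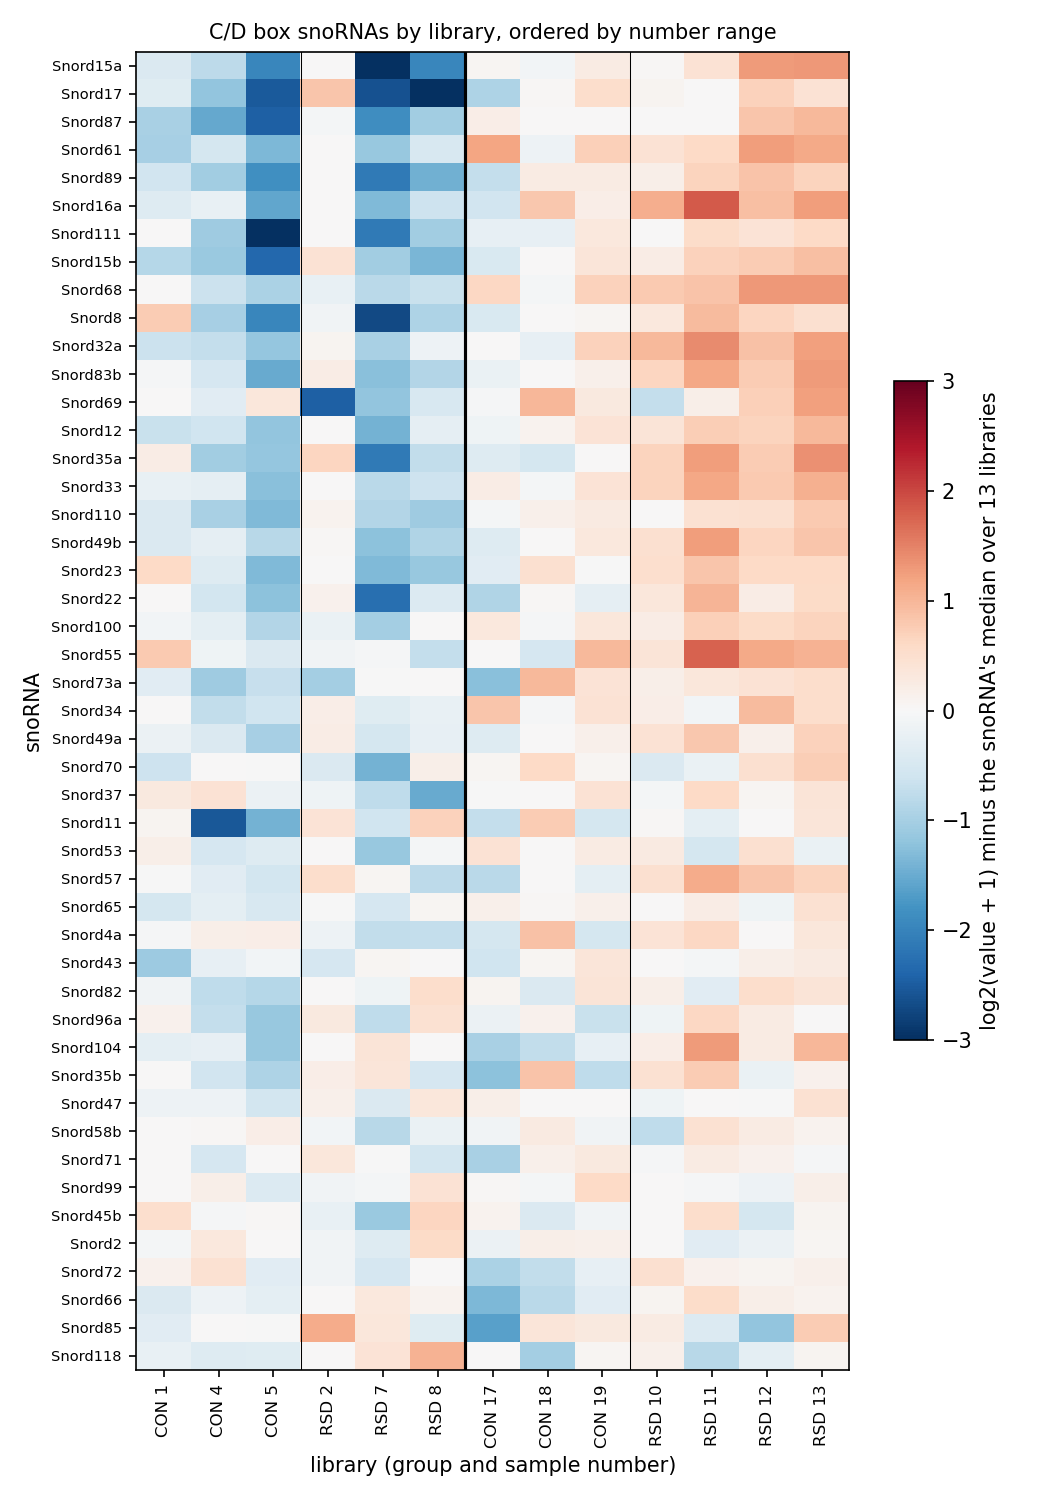
Each cell gives the log2(value + 1) of 1 of the 47 members in 1 library, less that member's median over the 13 libraries. Rows are ordered by the difference between sample numbers 10 to 19 and 1 to 8, and the heavy line parts those ranges. Blue fills the columns of CON 5 and RSD 7, with a mean deviation of -0.92 and -0.90, and red those of RSD 11 to RSD 13.

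In the comparison of RSD with CON, most members stood somewhat higher in RSD, and none passed the test. Limma on log2(value + 1) called 0 of the 47 at an adjusted p under 0.05, beside 0 of all 12496 genes tested (0%). The smallest adjusted p of a member was 0.821 by limma. The log2 difference was positive for 38 of the 47 (80.9%), against 51.4% of all genes, and its median was 0.39 against 0.0057. Most members shared the deviations of a library, so counts over members, here and below, are not counts of independent observations. At an unadjusted p under 0.05, 4 members (8.51%) were higher in RSD and 0 lower, where 2.02% of all genes were higher and 1.98% lower. EdgeR called 0 members (0% of all genes) and had 6 at an unadjusted p under 0.05, all higher (1.92% of all genes). DESeq2 called 1 member, Snord104, where it called 0.016% of all genes, and had 6 at an unadjusted p under 0.05, all higher (2.15% of all genes). Limma-voom with sample quality weights called 0 members and had 16 at an unadjusted p under 0.05, all higher (4.88% of all genes), with a median log2 difference of 0.74.

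The number of members at an unadjusted p under 0.05 depended on a few libraries. It was 12 without RSD 7 (2.1% of all genes were higher at that level), 7 without RSD 8 (1.49%) and 7 without CON 18 (2.49%). It fell from 4 to 3 without CON 4, CON 5, CON 17, RSD 10 or RSD 13. In those fits 347 to 652 of all genes were at that level in either direction. Without CON 5, 34 of 48 members had a positive log2 difference, with a median of 0.26. Without RSD 7, RSD 8 and CON 5 together, the number was 18, all higher in RSD (1.38% of all genes). That set was chosen after the data were seen, and it had 0 called and a median log2 difference of 0.57.

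Snord104 and Snord66 were the 2 members in which every RSD library stood above every CON library, beside 0.032% of all genes, and 0 members had the opposite order (0.032% of all genes). Snord104 ran from 233 to 568 normalized reads in RSD with a median of 278, and from 106 to 197 in CON with a median of 165. RSD 11 at 568 and RSD 13 at 465 were the high libraries, and CON 5 at 106 was the lowest. Its log2 difference was 1.05 ± 0.23 (SE), with a limma adjusted p of 0.821 and a DESeq2 adjusted p of 0.0286. Over the alternative settings tried, its log2 difference ran from 0.69 to 1.33 and its adjusted p from 0.0286 to 0.990. The gap between the groups is narrow beside counting error: the lowest RSD library, RSD 8, had 233 (95% Poisson interval 203 to 266) and the highest CON library, CON 19, had 197 (171 to 226).

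Snord66 was a low-count member that overlaps an annotated exon of its host Eif4g1, whose mean was 2917 normalized reads. It ran from 18.6 to 27.5 normalized reads in RSD with a median of 20.2, and from 6.73 to 16.7 in CON with a median of 13.99. The groups did not overlap, but the lowest RSD library rests on 16 reads and the highest CON library on 18. Their 95% Poisson intervals, 10.6 to 30.2 and 9.90 to 26.4 normalized reads, overlap over most of their length. The log2 difference was 0.75 ± 0.23 (SE), with a limma adjusted p of 0.821.

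The other members of smallest p on the higher side were Snord57, Snord49a, Snord32a and Snord96a, and their groups overlapped. Snord57, which lies in Nop56 and guides methylation of small-subunit ribosomal RNA, ran from 10.6 to 42.8 normalized reads in RSD (median 27.9) and from 10.6 to 19.2 in CON (median 15.2). Its lowest RSD library, RSD 8, was level with its lowest CON library, CON 17, while the other 6 RSD libraries stood above all of CON. Snord49a, a large-subunit guide, ran from 73.9 to 187 in RSD (median 126) and from 53.4 to 119 in CON (median 88.0). Snord32a, which has targets in both subunits, ran from 87.6 to 460 in RSD (median 316) and from 76.8 to 277 in CON (median 127). The log2 differences of these 3 were 0.75 ± 0.28, 0.52 ± 0.22 and 0.85 ± 0.40 (SE). Snord96a, whose target is the short ribosomal RNA of the large subunit, had 48.6 ± 13.9 in RSD (SD, n = 7) and 34.3 ± 12.0 in CON (SD, n = 6).

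The most abundant members had wide spreads that covered both groups. Snord17 ran from 1575 to 24680 normalized reads in RSD (median 14604) and from 2430 to 19877 in CON (median 9015), so its lowest and its highest library were both RSD. Snord15b ran from 2363 to 11309 in RSD (median 8167) and from 1183 to 7827 in CON (median 3896), with 4 RSD libraries above all of CON. Snord15a, its neighbour in Rps3, ran from 49.6 to 1378 in RSD (median 569) and from 142 to 660 in CON (median 465). The log2 differences were 0.21 ± 0.76, 0.82 ± 0.50 and 0.15 ± 0.76 (SE). Those of Snord17 and Snord15a turned negative without CON 5, at -0.15 and -0.14. Snord17 was also at -0.02 without RSD 2, and Snord15a at -0.11 without RSD 12 and -0.12 without RSD 13. Snord49b had a log2 difference of 0.43 ± 0.38 (SE), and Snord83b, for which no target is known, one of 0.62 ± 0.44.

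**Figure D3:**
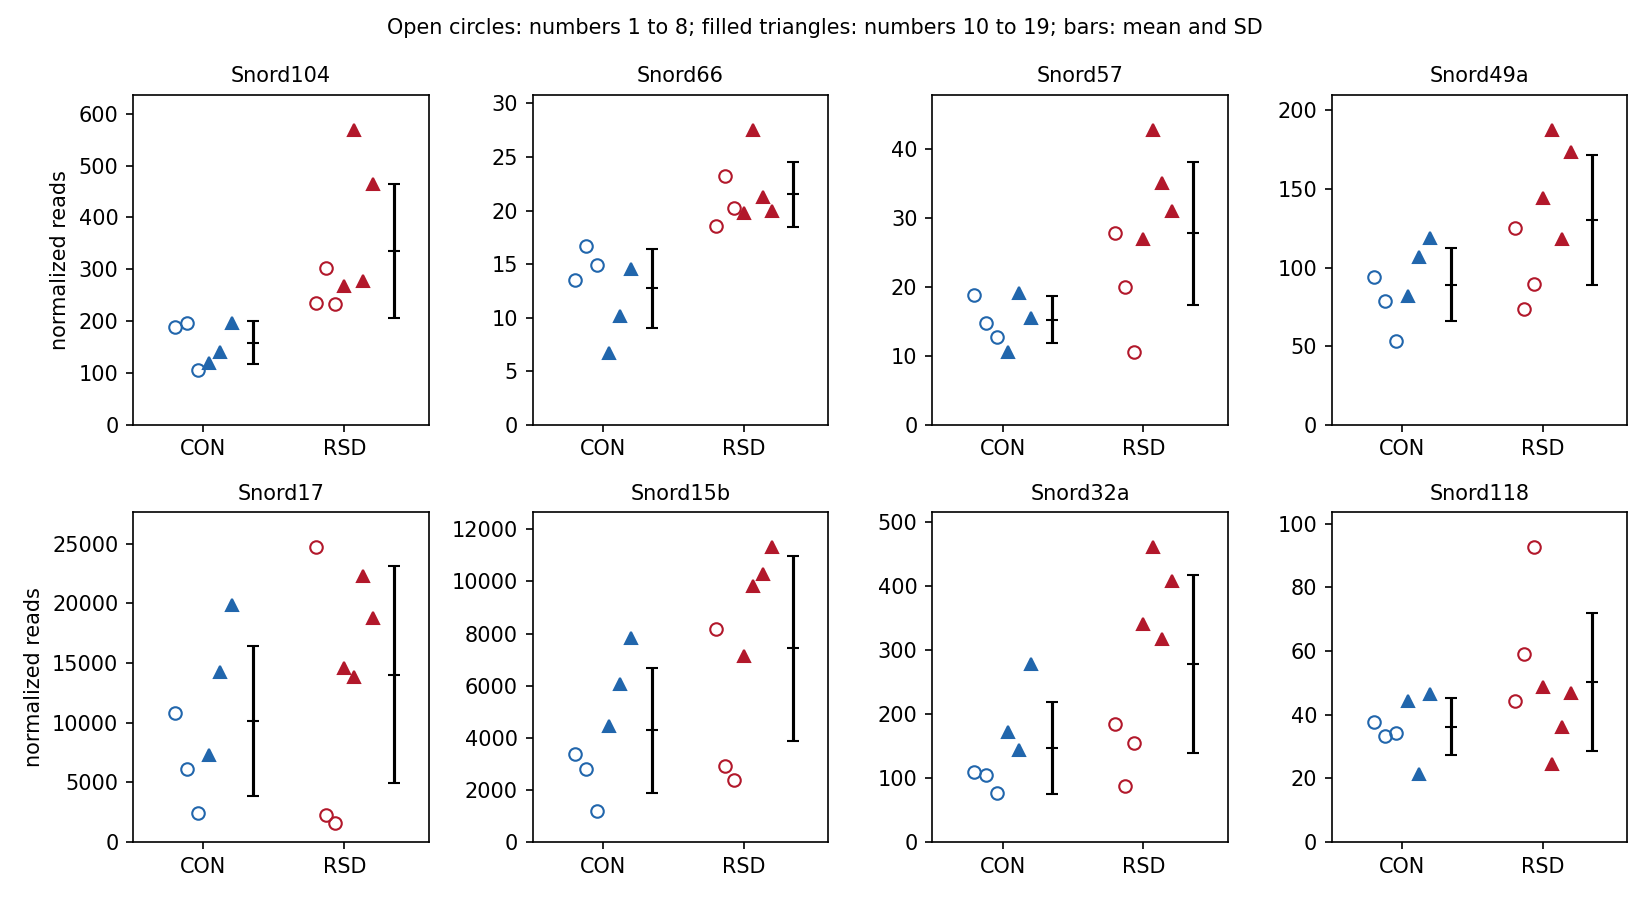
Normalized reads of 8 members in each library, by group, with open circles for sample numbers 1 to 8, filled triangles for 10 to 19, and bars for the mean and SD (n = 6 in CON, n = 7 in RSD). Each panel has its own axis from 0. RSD and CON do not overlap in the Snord104 and Snord66 panels, and overlap in the other 6.

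On the lower side the 6 members of smallest p were Snord69, Snord37, Snord58b, Snord2, Snord53 and Snord70, with log2 differences of -0.60, -0.36, -0.20, -0.12, -0.17 and -0.17. All had a limma adjusted p of at least 0.821, and RSD and CON overlapped in each. Snord69, a large-subunit guide in the nucleostemin gene Gnl3, ran from 1.16 to 26.7 normalized reads in RSD (median 7.45) and from 8.35 to 22.5 in CON (median 12.2), so RSD held both its lowest and its highest library. Snord37, in the elongation factor gene Eef2, ran from 9.58 to 44.8 in RSD (median 28.1) and from 25.6 to 39.9 in CON (median 32.6). Snord2, in Eif4a2, was among the steadiest members, at 81.2 ± 20.4 in RSD (SD, n = 7) and 87.0 ± 10.5 in CON (SD, n = 6). Snord70 had a log2 difference of 0.04 without RSD 7.

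The sample numbers fall into 1 to 8 and 10 to 19, and each range holds both groups. What a number stands for is not given in the sources used here. Within 10 to 19 (4 RSD and 3 CON) 14 of the 47 members had every RSD library above every CON library, or 29.8% beside 4.33% of all genes, and 0 the opposite order (4.26% of all genes). They were Snord104, Snord16a, Snord22, Snord23, Snord32a, Snord33, Snord35a, Snord49b, Snord57, Snord66, Snord68, Snord72, Snord8 and Snord83b. Snord35a, a large-subunit guide in Rpl13a, had 86.2 to 141 normalized reads in those RSD libraries and 37.2 to 54.1 in CON, and Snord83b had 364 to 565 and 204 to 259. Of the 49 members that passed the filter in that range, 41 had a positive log2 difference (51.2% of all genes) and 17 an unadjusted limma p under 0.05, all higher (2.98% of all genes were higher and 2.43% lower). Limma called 0 of them, as it did of all genes (0%). Of the 3 CON libraries of that range, CON 18 had the high sum of border macrophage markers (14730) and the lowest sum of microglial markers. CON 17 was the lowest of the range in Rmrp (12605). That range was not fitted without either library. By group means, related small RNAs had the same order in that range. The mean log2 deviation was 0.44 in RSD and -0.03 in CON for the 47 members. It was 0.47 and -0.11 for the 30 H/ACA RNAs and 0.36 and -0.04 for 8 Cajal body small RNAs. In these other classes the groups overlapped. CON 18 stood above RSD 10 for the H/ACA RNAs (0.25 and 0.20) and above RSD 12 for the Cajal body RNAs (0.33 and 0.17). CON 17 was the lowest library of the range in both, at -0.67 and -0.52.

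Within 1 to 8 (3 RSD and 3 CON) the order was mixed. Of 45 members that passed the filter there, 27 had a positive log2 difference (49% of all genes). RSD stood above CON without overlap for Snord104, Snord118 and Snord66, or 6.38% of the 47 members beside 16.2% of all genes. It stood below CON for Snord4a, Snord58b and Snord69, or 6.38% beside 14.3% of all genes. Snord118, the U8 RNA, acts in cleavage of the precursor of large-subunit ribosomal RNA. It had 44.2, 59.1 and 92.6 normalized reads in RSD 2, RSD 7 and RSD 8 against 33.4 to 37.7 in CON, while in 10 to 19 its values in RSD (24.4 to 48.8) and CON (21.4 to 46.4) covered the same span. Limma called 0 members (0% of all genes), and 4 of the 45 had an unadjusted p under 0.05, where 22.2% of all genes did.

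The difference between the ranges in the RSD effect was tested as an interaction. Limma called 0 of the 47 members (0% of all genes), and 3 had an unadjusted p under 0.05, where 21.7% of all genes did. These were Snord49b, Snord37 and Snord72, with interaction adjusted p of 0.205, 0.207 and 0.211 by limma. DESeq2 called 0 members where it called 3.06% of all genes, and limma-voom called 1, Snord69, where it called 12.3% of all genes. For Snord104 the log2 difference was 0.69 ± 0.23 (SE) in 1 to 8 and 1.33 ± 0.31 in 10 to 19.

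**Figure D4:**
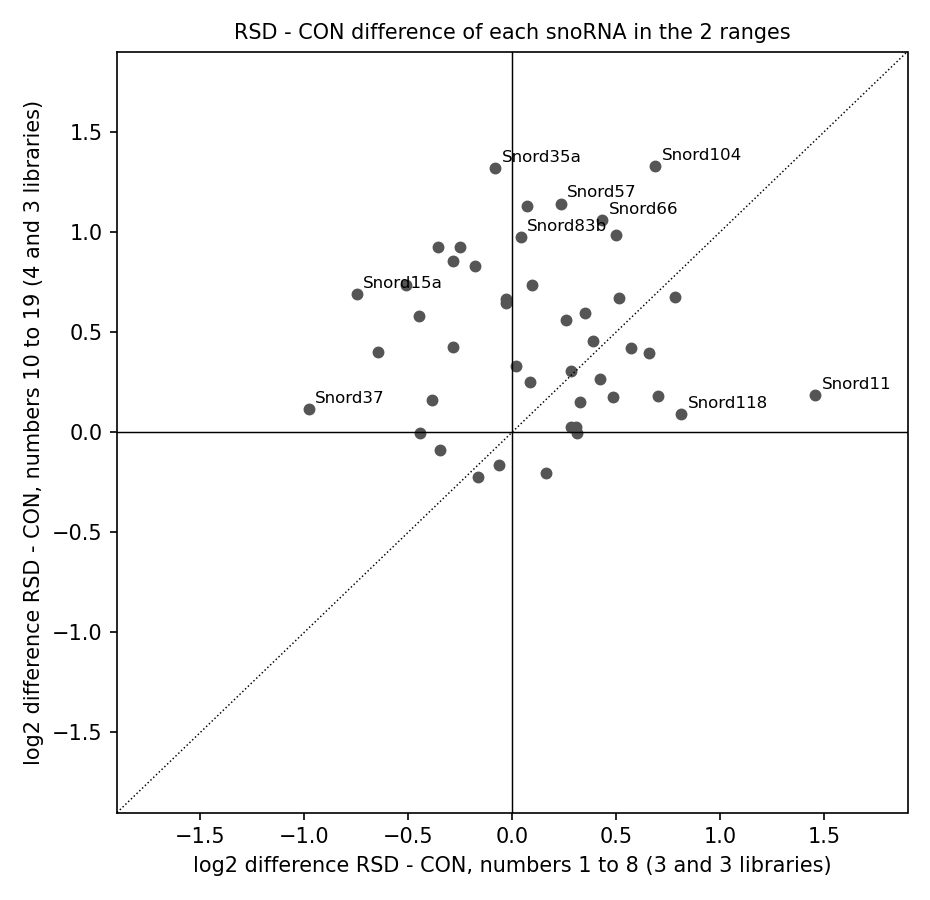
Each point is 1 member that passed the filter in both ranges, with its RSD less CON log2 difference in sample numbers 1 to 8 (x axis, 3 and 3 libraries) and in 10 to 19 (y axis, 4 and 3 libraries). The dotted line marks equal differences. Most points lie above 0 on the y axis, and they spread to both sides of 0 on the x axis.

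Between the ranges themselves, with group in the model, members were higher in 10 to 19. Limma called 6 of the 47 at an adjusted p under 0.05, all higher in 10 to 19 (12.8%), beside 0.528% of all genes higher, 0.16% lower and 0.688% in either direction. The log2 difference was positive for 41 of the 47 (48.3% of all genes), with a median of 0.68. The 6 were Snord32a, Snord33, Snord68, Snord61, Snord12 and Snord87. Snord32a had 119 ± 41.2 normalized reads in 1 to 8 (SD, n = 6) and 303 ± 116 in 10 to 19 (SD, n = 7), a log2 difference of 1.24 ± 0.20 (SE, limma adjusted p = 0.00753). Snord87, a large-subunit guide in Snhg6, was the only member without overlap, at 7.47 to 43.0 in 1 to 8 and 45.1 to 90.03 in 10 to 19 (0.624% of all genes were higher without overlap and 0.648% lower). Its log2 difference was 1.58 ± 0.30 (SE, limma adjusted p = 0.0256). The gap between its ranges rests on 37 reads in RSD 2 and 40 in CON 18, and is narrow beside counting error. Neutrophil markers moved the other way, with summed values of 182 to 1185 in 1 to 8 and 11.6 to 124 in 10 to 19. S100a8 and Ltf were at 0 in 3 libraries of 10 to 19 and S100a9 in 2, and Ngp and Camp were at 0 in none. RSD 2, with the highest neutrophil sum, had 0.320% of its reads on members, above most libraries. The part of neutrophil RNA in the difference between ranges was not tested.

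RSD 7, RSD 8 and CON 5, low in Rmrp and Rpph1, are all in 1 to 8. Without them limma called 0 members (0% of all genes) between the ranges, and the median log2 difference was 0.34. The count was 2 without CON 5 (0.302% of all genes), 2 without CON 19 (0.262%), 2 without RSD 13 (0.289%) and 3 without RSD 7 (0.265%). It did not fall by more than 1.5 times without any other single library, and was 9 without CON 17 (0.668% of all genes), CON 18 (1.37%) or RSD 2 (0.586%). With a mean of at least 50 normalized reads it was 3 of 19 members (0.673% of all genes). DESeq2 called 13 members where it called 2.04% of all genes, and limma-voom with sample weights called 11 where it called 2.12%. The part of these 3 libraries in the RSD comparison was not tested beyond leaving them out.

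Members and their host genes were set side by side where both passed the filter, which gave 44 pairs over 35 hosts. Every one of the 44 members varied more over the 13 libraries than its host, with a median SD of 0.70 on the log2 scale for members, 0.19 for hosts and 0.24 for all genes. Most members also had fewer reads than their hosts, and counting error adds to the spread of low values. Limma called 0 hosts in either comparison. The log2 difference of RSD from CON was -0.47 to 0.32 in hosts, and the member stood above its host in 35 of 44 pairs. Between the number ranges hosts lay between -0.42 and 0.24, and the member stood above its host in 41 of 44 pairs.

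**Figure D5:**
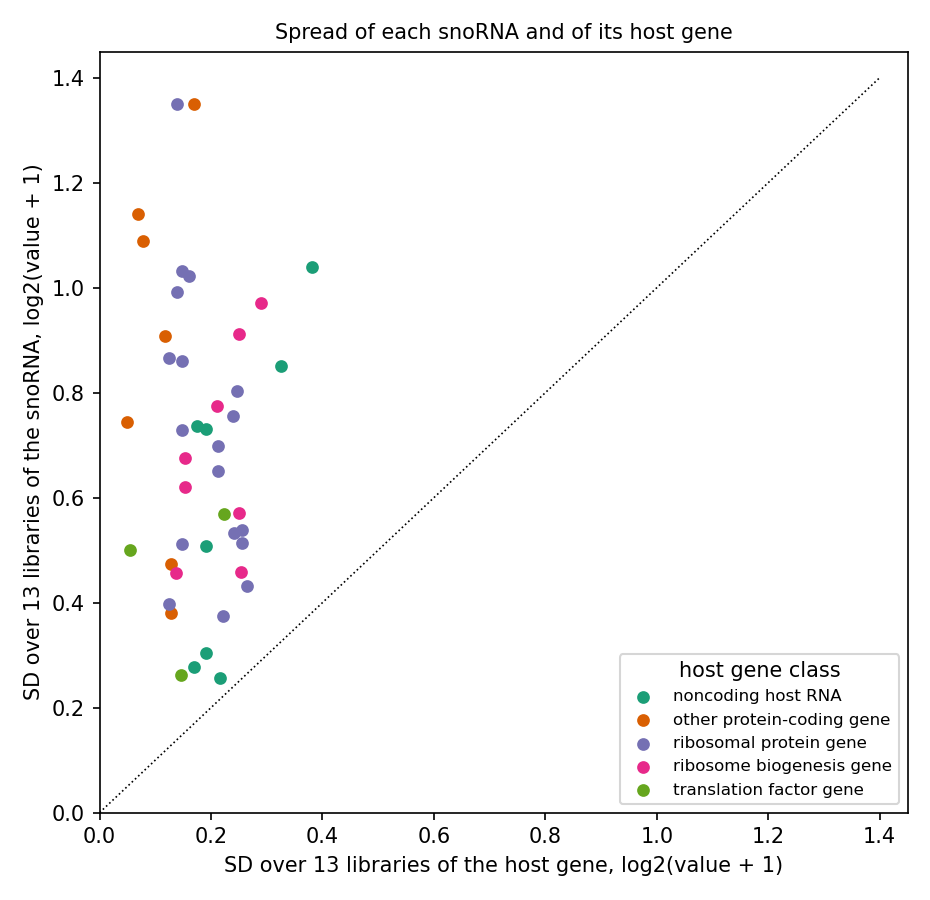
Each point is 1 member with its host gene, by the SD of log2(value + 1) over the 13 libraries of the host (x axis) and of the member (y axis), coloured by the class of the host gene. The dotted line marks equal SDs. All 44 points lie above the line.

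Rpl13a, the gene of a large-subunit ribosomal protein, holds Snord32a, Snord33, Snord34 and Snord35a in its span. Rpl13a itself had 1084 ± 81.6 normalized reads in RSD (SD, n = 7) and 1205 ± 132 in CON (SD, n = 6), a log2 difference of -0.15. Its 4 small RNAs differed by 0.85, 0.51, 0.19 and 0.74. Snord34, a large-subunit guide, ran from 24.3 to 62.0 in RSD and 18.6 to 56.7 in CON. Snord35a ran from 11.6 to 141 in RSD and 23.5 to 62.9 in CON, with 5 RSD libraries above all of CON and RSD 7 below it. Products of 1 host thus had different spreads, with a log2 SD over libraries of 0.51 for Snord34 and 1.03 for Snord35a against 0.15 for Rpl13a.

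The noncoding RNA 2410006H16Rik holds Snord49b, Snord49a and Snord65. It had 508 ± 47.5 normalized reads in RSD (SD, n = 7) and 449 ± 63.8 in CON (SD, n = 6), a log2 difference of 0.18. Snord65, a small-subunit guide, was steady, with 94.96 to 184 in RSD and 93.5 to 150 in CON, and a log2 SD over libraries of 0.30. Snord49b had a log2 SD of 0.73 and ran from 147 to 819 in RSD and 192 to 428 in CON. In Snhg6, the host was lower in RSD (36.5 ± 7.97, SD, n = 7) than in CON (50.9 ± 10.4, SD, n = 6), a log2 difference of -0.47 that limma did not call, while its Snord87 had a log2 difference of 0.63. Nop56, host of Snord57 and Snord110, had a log2 difference of 0.19, and those 2 RNAs had 0.75 and 0.37.

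By class of host, the median RSD log2 difference was 0.41 for 18 members in ribosomal protein genes, of which 16 were positive, and 0.43 for 9 in noncoding host RNAs, of which 8 were positive. It was 0.27 for 8 members in ribosome biogenesis genes (5 positive), 0.24 for 7 in other protein-coding genes (6 positive) and -0.12 for 3 in translation factor genes (1 positive). In all 5 classes 0 were called, and members of all 47 had a median of 0.39. Between the number ranges, the 9 members of at least 100 bases had a median log2 difference of 1.26 and the 38 shorter ones of 0.56. The 6 called there were all among the shorter. Members that overlap a host exon had a median RSD log2 difference of 0.50 (17 members) and the others 0.34 (30 members).

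None of the genes of the particle's proteins passed the test between RSD and CON. The list held 26 measured genes of core proteins, assembly factors and processing or trafficking factors. Over all 13 libraries, 21 of these had a positive and 5 a negative log2 difference in RSD, where 51.4% of all genes were positive. The list median was 0.10, against 0.0057 for all genes, and limma called 0 (0% of all genes). Fbl had 310 ± 22.8 normalized reads in RSD (SD, n = 7) and 296 ± 28.7 in CON (SD, n = 6). Nop58 had 433 ± 98.7 and 408 ± 66.2, and Snu13, listed under its older symbol Nhp2l1, had 339 ± 34.7 and 339 ± 25.8. Nop56 had 771 ± 85.1 and 673 ± 33.6. Within sample numbers 1 to 8 the log2 differences of Fbl, Nop56, Nop58 and Snu13 were 0.08, 0.19, 0.39 and 0.02. Within 10 to 19 they were 0.04, 0.20, -0.20 and -0.04. Other genes of the list also changed sign between the ranges. Znhit6, Xrn2 and Tgs1 were positive in 1 to 8 (0.47, 0.33 and 0.35) and negative in 10 to 19 (-0.08, -0.12 and -0.07). Ruvbl2 and Pih1d1 went the other way (-0.34 and -0.29, then 0.22 and 0.16). The positive count over all libraries thus does not hold in each range for every gene. Nop56, Nolc1 and Hsp90ab1 had the smallest p of the list, with log2 differences of 0.19 ± 0.08, 0.25 ± 0.09 and 0.54 ± 0.24 (SE) and a limma adjusted p of 0.821 for each. Nolc1 is a nucleolar chaperone of these particles, and Hsp90ab1 is the heat shock protein that acts in their assembly. Between the number ranges Hsp90ab1 was the 1 gene of the list that limma called, higher in 10 to 19 by 0.68 on the log2 scale (adjusted p = 0.0459).

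Among 10257 genes with a mean of at least 50 normalized reads, the 3 whose order over the 13 libraries was most like that of Snord104 were Gm13710 (Spearman rho 0.791), Mrpl51 (0.780), which codes for a mitochondrial ribosomal protein, and Qars (0.780), the glutaminyl-tRNA synthetase. The libraries share group and number range, so these are descriptions. Gm13710 had 186 ± 26.3 normalized reads in RSD (SD, n = 7) and 143 ± 22.7 in CON (SD, n = 6). Unlike those of Snord104, the groups overlapped in all 3.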

How the data were processed

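RNA of sorted microglia was sequenced after Percoll enrichment, CD11b and CD45 staining, sorting, PicoPure extraction and Ovation SoLo library preparation with AnyDeplete removal of ribosomal RNA, per the labels' protocols. The submitters' processing notes name STAR, DESeq2 and mm10. Tool versions, the read counter and its annotation, and strandedness were not given in the sources used here. In the table the authors deposited, a value is a signal per gene and library, a read count divided by a size factor. Whole reads were recovered: 100% of values in each library were whole multiples of 1 step, within 0.01 reads. Depth was 9.76 to 12.3 M reads, and intervals cover counting error only, since reads are not independent molecules.

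A filter on low values, filterByExpr of edgeR with a minimum count of 10 and a minimum total of 15, was applied to the recovered reads and left 12496 of 14518 genes. RSD was compared with CON by limma (3.58.1, R 4.3.3) on log2(value + 1) with trend and robust variance, two-sided, with Benjamini-Hochberg adjustment over all genes kept and a threshold of 0.05. Log2 differences on this scale understate those of low genes. The number range (10 to 19 against 1 to 8) and its interaction with group were further terms. EdgeR (4.0.16), DESeq2 (1.42.0) and limma-voom on the recovered reads, other pseudocounts, filters and size factors, and fewer libraries were alternatives. The fits were tested on simulated data. Each simulated gene was drawn on its own, without the shifts that small RNAs shared by library here, so that test does not cover such shifts. Members named are the 6 of smallest p in each direction, the 6 of highest mean, those whose groups do not overlap, and those of hosts with at least 3 kept members; of the particle proteins, the 3 of smallest p and the core proteins. The members and lists were chosen with earlier results of these data known. All 61 members were matched to GENCODE M21 and to RefSeq by symbol; a host is an annotated gene of the same strand that spans the whole member. All 13 libraries were used, and no value was imputed.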

Additional observations from a re-analysis of the deposited data

Results flagged for a closer look

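Of the 36 groups of values looked at (the named members and shares, by group), 1 had a library far from the others, where chance gives about 1 in 20. Snord2 had 123 normalized reads in RSD 8 and 62.3 to 85.6 in the other RSD libraries. In the CON libraries it had 73.1 to 102. Snord2 overlaps an annotated exon of its host Eif4a2, which was also highest in RSD 8, at 7889 normalized reads. The part of host reads in the Snord2 value was not tested. RSD 8 was at the same time low in most of the class (mean log2 deviation -0.43) and in Rmrp (1495 normalized reads).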

How the results depend on the processing

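No paired analysis was possible because RSD and CON share no sample numbers. The count of members called between RSD and CON was 1 with DESeq2 and 0 under the other alternatives, with 0 to 0 when 1 library was left out. The count between number ranges was 13 with DESeq2 (2.04% of all genes), 11 with limma-voom (2.12%), 3 with a mean of at least 50 (0.673%) and 0 without RSD 7, RSD 8 and CON 5 (chosen after the data were seen), and 2 to 9 with 1 library left out (0.262% to 1.37% of all genes). The interaction count was 1 with limma-voom (Snord69, adjusted p = 0.0349), which called 12.3% of all genes. The member stood above its host in 15 of 17 pairs at a mean of at least 50, and in 29 to 36 pairs with 1 library left out. RSD less CON in the share of reads was 0.0721 percentage points, and 0.0509 to 0.101 with 1 library left out. In sample numbers 1 to 8 alone the log2 differences of Snord15a, Snord17 and Snord49b were -0.75, -0.29 and -0.18, and in 10 to 19 that of Snord37 was 0.11. With 1 library left out, Snord15a ran from -0.14 (without CON 5) to 0.67, Snord17 from -0.15 (without CON 5) to 0.64 and Snord70 from -0.32 to 0.042 (without RSD 7). Snord70 was at 0.010 without RSD 7, RSD 8 and CON 5. The cause was not tested. Depth limits the low members: the intervals of Snord66 span more than its difference between groups, and the 14 members under the filter were not tested.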
